A study of Mus musculus with 200 samples.

Results

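Rbm3 and Cirbp, the cold-inducible RNA-binding protein genes of the mouse, were read from the 2 rows of the gene count table that carry these names, out of 56941 genes listed. The pair was chosen by readout: the values used were the level of each gene in every mouse, closed-head injury (CHI) against sham surgery in each of 4 strains at 9, 24 and 72 h, and sham levels over time. These contrasts are therefore given as descriptions, with a difference and a 95% interval and with no p-value. Tests are given only for sex, for strains among sham mice, for the deviation of single mice within their groups, and for other genes.

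The series held bulk RNA-seq of 1 brain hemisphere from each of 200 adult mice after CHI or sham surgery. The strains were C57BL/6J (61 mice), IL-1R1 nRestore (34), IL-1R1 eRestore (50) and IL-1R1 gKO (55), aged 3.3 to 7.67 months. All mice were anaesthetised with isoflurane and had the scalp opened over a skull left whole, and a heating pad kept core temperature steady during surgery. Only CHI mice were then struck, once, with an impactor. At 9 h there were 46 CHI and 22 sham mice, at 24 h 43 and 22, and at 72 h 44 and 23. C57BL/6J had 15, 14 and 14 CHI mice at the 3 times and 6 sham mice at each. IL-1R1 gKO had 13, 12 and 12 CHI mice and 6 sham mice at each time. IL-1R1 eRestore had 12, 9 and 12 CHI mice against 6, 5 and 6 sham mice, and IL-1R1 nRestore 6, 8 and 6 against 4, 5 and 5. The part of the interleukin-1 receptor gene altered in the last 3 strains, and the promoter that drives any restored expression, were not given in the sources used here, so these names stand for mice so labelled. Males and females were both present, except in IL-1R1 nRestore at 72 h, where all 11 mice were labelled male.

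Rbm3 and Cirbp encode small proteins with 1 RNA recognition motif and a glycine-rich tail. Both are made in larger amounts when body or brain temperature falls by a few degrees, and less when it rises, the opposite of heat shock proteins. In the brain, RBM3 is known for supporting protein synthesis and synapse maintenance in the cold and in hibernation. CIRBP is known for binding and stabilising mRNAs under stress and in the daily temperature cycle, and as an inflammatory signal when released from cells. Cold raises Rbm3 through the skipping of a poison exon, whereas part of the control of Cirbp lies in its promoter.

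The Cirbp promoter is shown because it holds an element described as conferring the response to mild cold. The 250 bases upstream of the annotated Cirbp start, from the RefSeq promoter table (build GRCm38.p6, chr10:80167589-80167838, plus strand), are printed 5′ to 3′ with the mild-cold responsive element in capitals. For the entry printed here, the annotation places them immediately upstream of the first exon, outside the transcript that begins at that start.

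Cirbp promoter: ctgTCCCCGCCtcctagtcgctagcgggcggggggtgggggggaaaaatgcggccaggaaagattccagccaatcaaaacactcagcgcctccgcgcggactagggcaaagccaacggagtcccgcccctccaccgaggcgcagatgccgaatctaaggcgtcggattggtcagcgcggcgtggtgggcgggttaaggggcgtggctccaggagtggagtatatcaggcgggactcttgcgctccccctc

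The element TCCCCGCC occurred once, on the plus strand, beginning 247 bases before the start. On either strand it was present in 4.64% of 32851 promoter windows of this length. The GC box GGGCGG, the kind of site that the transcription factor Sp1 binds, matched 3 times and was present in 32.7% of windows. The inverted CCAAT box ATTGG matched 2 times (33.8% of windows). The E-box CACGTG of clock factors and the heat shock pattern GAANNTTC had no match (6.02% and 6.69% of windows). Both strands were searched, the GC boxes and the cold element do not overlap one another, and a match is a description of letters only. The table had a second Cirbp entry, in which the cold element was not found. Rbm3 was not matched in this table.

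In the GRCm39 annotation Rbm3 (ENSMUSG00000031167) lies on the minus strand of chromosome X, from 8004213 to 8012119, and Cirbp (ENSMUSG00000045193) on the plus strand of chromosome 10, from 79997069 to 80008626. The antisense lncRNA Rbm3os shares 472 exonic bases with Rbm3. It carried a median of 0.12% and at most 1.11% of the Rbm3 count, and since the strand setting of the counting was not stated, reads of the pair cannot be told apart over those bases. The processed pseudogene Rbm3-ps on chromosome 1 received 0 to 8.02 counts per mouse. A pair of antisense lncRNAs that overlap Cirbp shared no exonic base with it.

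Gene counts summed to 14857985 to 57355676 per library (median 20258936). Every mouse had 692 to 6978 counts of Rbm3 and 437 to 4468 of Cirbp, so counting error was small beside the differences between mice. In 2 libraries labelled male, IL-1R1 eRestore sham 24 h replicate 4 and IL-1R1 nRestore CHI 72 h replicate 6, Xist stood at 629.3 and 533.7 CPM, the count scaled by the library total and its normalization factor, and Ddx3y at 0, whereas other libraries labelled male had at most 0.857 and at least 44.4. The 2 libraries are called mislabelled below on these sex markers alone, and whether their other labels hold is not known. The values they bear on most directly are also given without them. Il1r1 ranged from 2.95 to 13.0 CPM in C57BL/6J (median 5.21), and its median was 9.93 in IL-1R1 gKO, 7.77 in eRestore and 9.39 in nRestore. The summed count of the gene was thus not lower in mice labelled gKO, and a sum over the gene does not check an allele whose altered part is unknown. Neuronal markers (Rbfox3, Snap25, Syt1, Tubb3) summed to 3276 to 6556 TPM, a unit scaled for gene length and library total, over all libraries, so the RNA was that of neural tissue. In bulk tissue, fewer cells of a type and less RNA per cell cannot be told apart.

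Both members were well expressed in every library. On the length-corrected TPM scale the Rbm3 level had a median of 159.3 over 200 mice (78.3 to 307.4) and the Cirbp level 109.8 (55.9 to 210.9). The ratio of the Rbm3 to the Cirbp level ran from 0.915 to 2.78 with a median of 1.46, and it was below 1 in 5 of 200 mice. With the strains pooled, the median ratio by surgery and time ran from 1.32 in sham mice at 72 h to 1.60 in CHI mice at 24 h. Pooling hides differences between strains. In CHI mice at 24 h the mean TPM of Rbm3 was 211.7 in C57BL/6J, 163.4 in gKO, 154.5 in eRestore and 147.3 in nRestore. That of Cirbp was 106.9, 113.8, 109.7 and 99.9 in the same order. The ratio was not tested between strains.

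The levels fell in a graded order over the 24 groups of strain, surgery and time. For Rbm3, C57BL/6J CHI mice at 9 h had the highest mean (142.8 ± 15.6 CPM, SD, n = 15), followed by IL-1R1 gKO and eRestore CHI mice at 9 h (124.3 ± 23.9, n = 13, and 115.3 ± 16.7, n = 12). IL-1R1 gKO sham mice at 24 h had the lowest (56.1 ± 9.07, n = 6). For Cirbp, the 8 groups at 9 h took ranks 1 to 8, from C57BL/6J CHI mice (95.6 ± 12.7, n = 15) to IL-1R1 nRestore sham mice (59.2 ± 11.3, n = 4), and IL-1R1 gKO sham mice at 24 h again stood last (40.8 ± 6.09, n = 6). In none of the 23 pairs of neighbours in either order did the means differ by more than the larger SD of the pair.

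**Figure D1:**
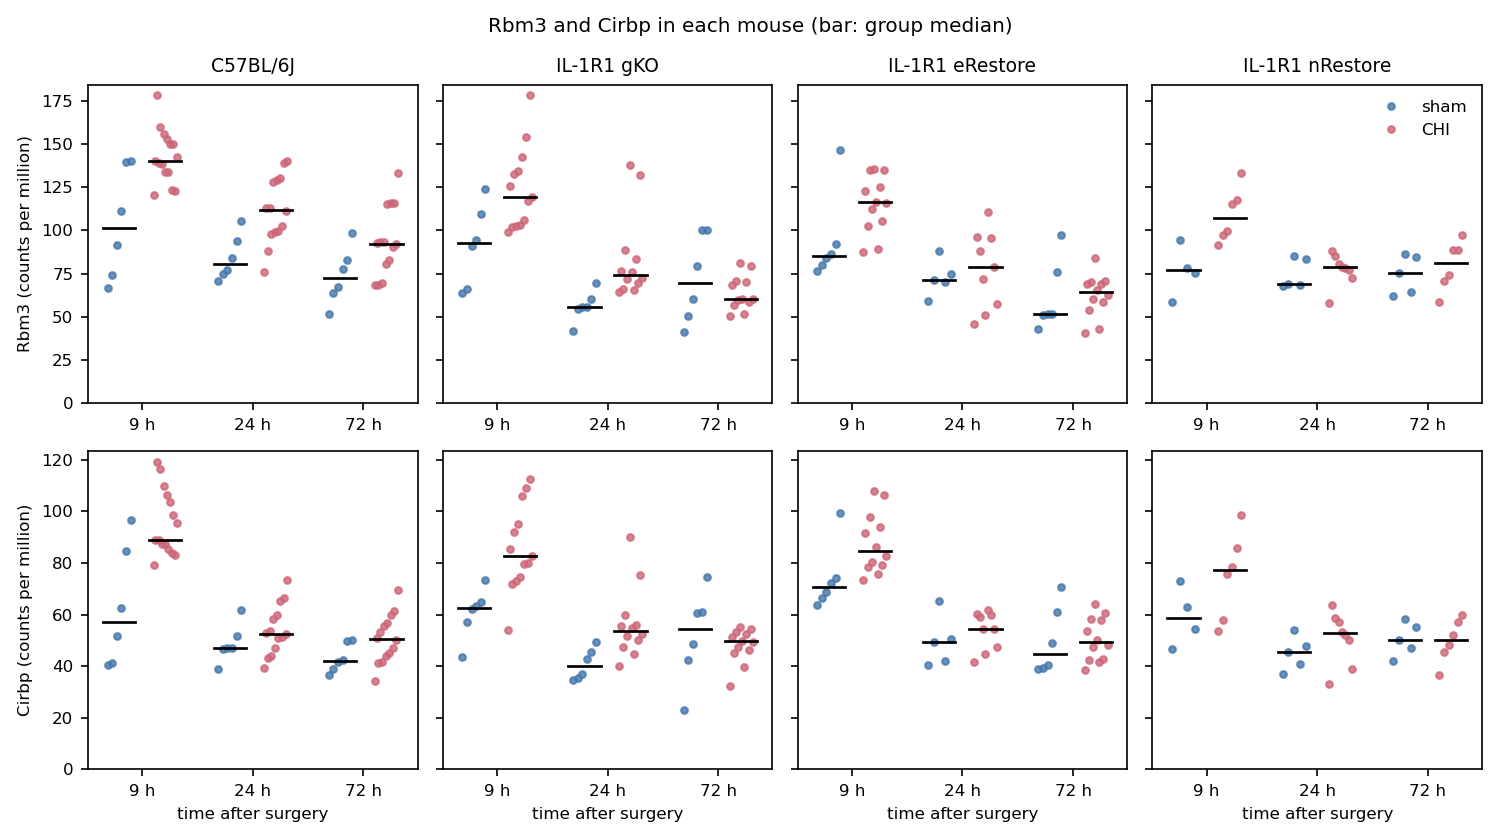
Rbm3 (top) and Cirbp (bottom) in each of the 200 mice, in CPM with normalization factors applied, by strain (columns) and time after surgery; blue points are sham mice, red points CHI mice, and the black bar is the group median. At 9 h the CHI medians stand above the sham medians in all 4 strains for both genes, and at 72 h the groups lie over one another in the 3 IL-1R1 strains.

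At 9 h after surgery, Rbm3 was higher in CHI than in sham mice in the median of every strain. In C57BL/6J the CHI mice ranged from 120.6 to 178.2 CPM (median 140.4) and the sham mice from 66.7 to 140.2 (median 101.6). In IL-1R1 gKO they ranged from 99.005 to 178.5 (median 119.2) and from 63.5 to 123.8 (median 92.6). All 15 C57BL/6J and all 13 gKO injured mice lay above the sham median, and 8 and 6 of them lay above every sham mouse. Over the 4 strains 12% of 18741 genes passed as higher and 11.9% as lower after CHI at this time (edgeR, adjusted p under 0.05).

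In IL-1R1 eRestore the Rbm3 levels at 9 h were 87.6 to 135.4 CPM after CHI (median 116.3) and 76.4 to 146.5 after sham surgery (median 85.0). No injured mouse lay above the highest sham mouse, which stood at 146.5 with the next at 92.2, while all 12 lay above the sham median. In IL-1R1 nRestore they were 91.5 to 133.2 (median 107.4) after CHI, and the 4 sham mice had 58.5, 75.2, 78.4 and 94.6 CPM. Of the 6 injured nRestore mice 5 lay above every sham mouse.

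Fitted with sex and age, the log2 fold change of Rbm3 at 9 h was 0.45 in C57BL/6J (SE 0.12, 95% interval 0.19 to 0.71), a fold of 1.37. It was 0.45 in IL-1R1 gKO (0.20 to 0.69), 0.27 in eRestore (-0.00 to 0.54) and 0.69 in nRestore (0.51 to 0.87). Without the highest eRestore sham mouse (replicate 6) the eRestore difference was 0.43 (0.23 to 0.63). Over the 4 strains the difference was 0.42 (SE 0.07, 0.28 to 0.55), a fold of 1.33, against a median of -0.00 over all genes fitted.

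Cirbp at 9 h followed the same order of groups within each strain. In C57BL/6J its levels were 79.3 to 119.4 CPM after CHI (median 88.9) and 40.5 to 96.5 after sham surgery (median 57.2). In IL-1R1 gKO they were 54.2 to 112.4 (median 82.7) and 43.5 to 73.6 (median 62.6). In these strains 6 of 15 and 10 of 13 injured mice lay above every sham mouse.

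In IL-1R1 eRestore the Cirbp levels at 9 h were 73.2 to 107.9 CPM after CHI (median 84.6) and 63.6 to 99.6 after sham surgery (median 70.6). The groups overlapped, and 2 of 12 injured mice lay above every sham mouse. In IL-1R1 nRestore the injured mice ranged from 53.4 to 98.8 (median 77.2) and the 4 sham mice had 46.6, 54.3, 63.0 and 72.9 CPM, with 4 of 6 injured mice above them all.

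The log2 fold change of Cirbp at 9 h was 0.62 in C57BL/6J (SE 0.13, 0.34 to 0.89), a fold of 1.53. It was 0.52 in IL-1R1 gKO (0.28 to 0.77), 0.22 in eRestore (0.01 to 0.43) and 0.61 in nRestore (0.29 to 0.93). Over the 4 strains it was 0.43 (SE 0.07, 0.28 to 0.57), a fold of 1.35, close to the fold of Rbm3.

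Surgery for the 9 h time was done in 3 experiments. All IL-1R1 nRestore mice at 9 h came from a single experiment, so their fits above are already within it. In the other strains, 7 combinations of strain and experiment held at least 2 mice of each surgery. Within them the CHI minus sham difference of Rbm3 ran from 0.12 to 0.67 and that of Cirbp from 0.08 to 0.77, higher after CHI in 7 of 7 for both genes. The size varied between experiments. In C57BL/6J the Rbm3 difference was 0.61 (0.27 to 0.95) in experiment eIL-1-76 and 0.15 (-0.08 to 0.38) in eIL-1-80, and in IL-1R1 eRestore the Cirbp difference was 0.08 (-0.22 to 0.37) and 0.48 (0.30 to 0.65) in the same experiments.

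**Figure D2:**
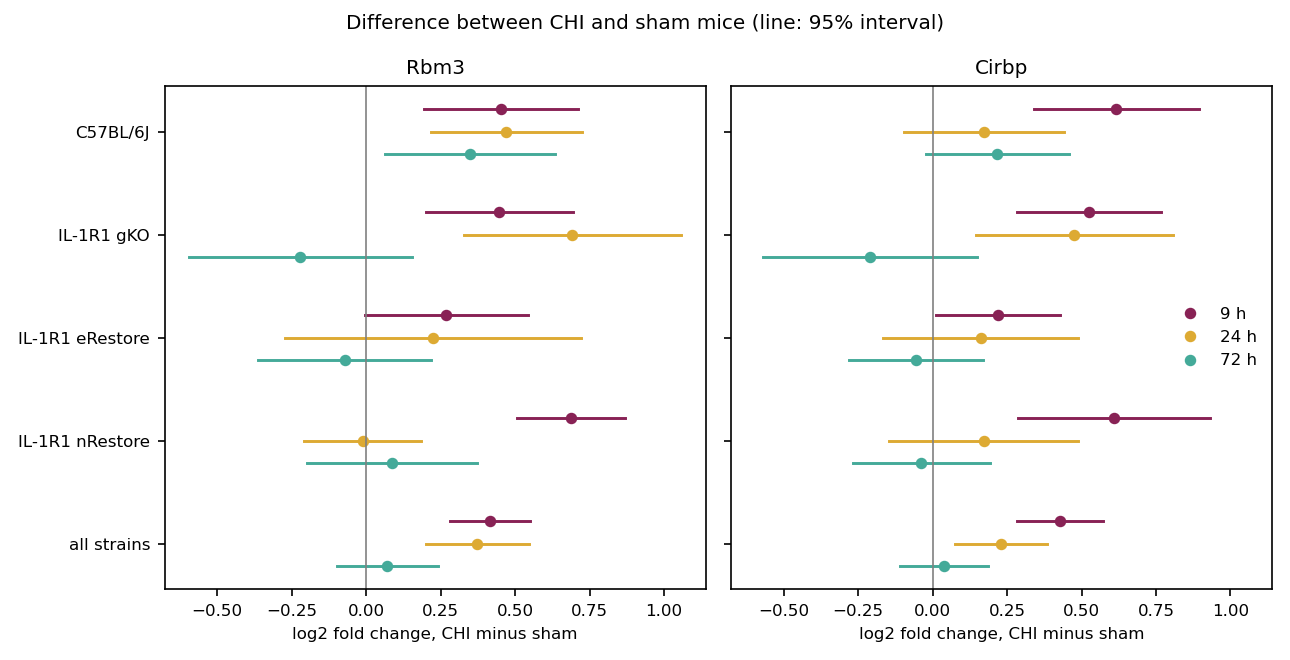
Log2 fold change of Rbm3 (left) and Cirbp (right) between CHI and sham mice in each strain and over the 4 strains, with sex and age in the fit; points are the fitted differences, lines their 95% intervals, and colours the time after surgery. The all-strain differences go from 0.42 and 0.43 at 9 h to 0.07 and 0.04 at 72 h.

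At 24 h the differences were less alike between the members and between the strains. Rbm3 in C57BL/6J ranged from 75.9 to 140.3 CPM after CHI (median 112.1) and from 70.7 to 105.2 after sham surgery (median 80.6), with 8 of 14 injured mice above every sham mouse. Over the 4 strains 0.627% of 18495 genes passed as higher and 0.854% as lower at 24 h. In IL-1R1 gKO it ranged from 64.3 to 137.7 (median 74.4) and from 41.7 to 69.6 (median 55.5), with 8 of 12 above every sham mouse. A pair of gKO mice of experiment eIL-1-38, at 137.7 and 132.4 CPM, stood far above the other injured mice, whose highest value was 88.6, and their Cirbp levels of 75.5 and 90.0 CPM were also the highest of that group. In experiment NiL-1-24, which held neither of these mice, the gKO difference at 24 h was 0.57 for Rbm3 (0.16 to 0.99, 2 CHI and 4 sham mice) and 0.43 for Cirbp (0.02 to 0.83). Both CHI mice there were male, while the sham mice were of both sexes. With sex in that fit, the difference rested on the male sham mice.

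In IL-1R1 eRestore at 24 h the Rbm3 levels spread from 45.6 to 110.9 CPM after CHI (median 78.9), and the 5 sham mice had 59.2, 70.3, 71.2, 74.5 and 88.2. Of the injured mice 3 lay above and 3 below all sham mice. In IL-1R1 nRestore the injured mice ranged from 57.8 to 88.1 (median 78.6) and the 5 sham mice had 67.5, 68.5, 69.0, 83.5 and 85.2, so the groups overlapped almost throughout.

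The fitted Rbm3 difference at 24 h was 0.47 in C57BL/6J (SE 0.12, 0.22 to 0.72), 0.69 in IL-1R1 gKO (SE 0.17, 0.33 to 1.06), 0.22 in eRestore (-0.27 to 0.72) and -0.01 in nRestore (-0.21 to 0.19). Over the 4 strains it was 0.37 (0.20 to 0.55), a fold of 1.29. Without the library labelled male that carries the female pattern, the eRestore difference was 0.18 and the all-strain difference 0.37. For gKO, eRestore and nRestore, experiment NiL-1-21 held CHI mice at 24 h but no sham mice. CHI ages at 24 h reached 7.4, 7.4 and 7.2 months in these strains, and sham ages 5.3 in each. Surgery was thus partly tied to experiment and age in the 24 h fits of both genes, which held no term for experiment. Over 7 other settings, among them experiment in place of age, the all-strain Rbm3 difference at 24 h ran from 0.30 to 0.38. That of Cirbp ran from 0.16 to 0.23.

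Cirbp at 24 h differed less. In C57BL/6J it ranged from 39.1 to 73.6 CPM after CHI (median 52.5) and from 38.7 to 61.6 after sham surgery (median 47.0). In IL-1R1 gKO it ranged from 40.2 to 90.0 (median 53.4) and from 34.6 to 49.5 (median 39.9). Only the gKO groups were largely apart, with 9 of 12 injured mice above every sham mouse, against 3 of 14 in C57BL/6J.

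In IL-1R1 eRestore at 24 h the Cirbp levels were 41.6 to 61.6 CPM after CHI (median 54.5), and the sham mice had 40.2, 42.1, 49.3, 50.5 and 65.3. In nRestore they were 32.9 to 63.6 (median 52.7), and the sham mice had 37.0, 40.9, 45.5, 47.8 and 54.0. In both strains the groups overlapped. The fitted difference was 0.48 in gKO (SE 0.16, 0.14 to 0.81), 0.17 in C57BL/6J (-0.10 to 0.44), 0.16 in eRestore (-0.16 to 0.49) and 0.17 in nRestore (-0.15 to 0.49), and over the 4 strains 0.23 (0.07 to 0.39), a fold of 1.17. Without the mislabelled library the eRestore value was 0.18. Without sham replicate 2 it was 0.28 in eRestore and 0.08 in nRestore, and without sham replicate 3 it was 0.10 in eRestore.

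At 72 h the Rbm3 difference was seen in C57BL/6J, whose injured mice ranged from 68.3 to 133.3 CPM (median 92.4) and whose sham mice from 51.4 to 98.7 (median 72.3), a log2 fold change of 0.35 (SE 0.14, 0.06 to 0.64). In IL-1R1 gKO the order of the medians was the opposite, 50.6 to 81.0 after CHI (median 60.2) and 41.2 to 100.02 after sham surgery (median 69.6), with a fitted difference of -0.22 (-0.59 to 0.15). Leaving out single gKO sham mice moved it from -0.35 (without replicate 2) to -0.07 (without replicate 3). In eRestore the levels were 40.4 to 83.8 (median 64.1) and 43.1 to 97.5 (median 51.6), a difference of -0.07 (-0.36 to 0.22), so that the medians and the fit had opposite signs. The sham mice of gKO and eRestore spread more widely than the injured ones. Of 4 microglial markers 3 passed as higher after CHI at 72 h over the 4 strains, Csf1r, Tmem119 and Cx3cr1 by 0.18, 0.19 and 0.20 (adjusted p = 0.000185, 0.0278 and 0.00189, edgeR). Their summed level was 128.9 to 230.1 TPM after CHI, with a median of 191.98, against 134.2 to 226.2 after sham surgery, with a median of 167.3, and its part in the levels of Rbm3 and Cirbp was not tested. At 72 h 0.679% of 18408 genes passed as higher and 0.0272% as lower over the 4 strains.

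In IL-1R1 nRestore at 72 h Rbm3 ranged from 58.5 to 97.1 CPM after CHI (median 81.3), and the sham mice had 61.9, 64.5, 75.2, 84.4 and 86.5. The difference was 0.09 (-0.20 to 0.37), and 0.02 without the library labelled male that carries the female pattern. Over the 4 strains the Rbm3 difference was 0.07 (-0.10 to 0.24), and 0.06 without that library.

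Cirbp at 72 h had differences of 0.22 in C57BL/6J (-0.02 to 0.46), -0.21 in IL-1R1 gKO (-0.57 to 0.15), -0.06 in eRestore (-0.28 to 0.17) and -0.04 in nRestore (-0.27 to 0.19), and 0.04 (-0.11 to 0.19) over the strains. Without the mislabelled library the nRestore value was again -0.04. The gKO value ran from -0.34 without sham replicate 2 to -0.05 without sham replicate 4, and the eRestore value was 0.05 without sham replicate 3. The Cirbp levels were 34.1 to 69.7 CPM (median 50.4) against 36.4 to 49.97 (median 41.95) in C57BL/6J, and 32.4 to 55.1 (median 49.6) against 23.0 to 74.4 (median 54.5) in gKO. They were 38.4 to 64.02 (median 49.2) against 39.0 to 70.6 (median 44.7) in eRestore. In nRestore they were 36.4 to 59.7 (median 50.2), and the sham mice had 41.8, 47.0, 50.3, 55.3 and 58.4. In C57BL/6J 7 of 14 injured mice lay above every sham mouse, against 0 of 12, 0 of 12 and 1 of 6 in the other strains.

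Within single experiments the Rbm3 difference was above 0 in 5 of 6 combinations at 24 h (-0.05 to 0.64) and in 4 of 6 at 72 h (-0.25 to 0.29). That of Cirbp was above 0 in 6 of 6 at 24 h (0.01 to 0.48) and in 3 of 6 at 72 h (-0.26 to 0.21). Among the differences between the CHI effect of each IL-1R1 strain and that of C57BL/6J, the largest was that of Rbm3 in gKO at 72 h, -0.51 (-0.95 to -0.07), and the intervals of the other 17 held 0. Without the 2 mislabelled libraries it was -0.51 (-0.95 to -0.07), and the eRestore difference at 24 h and the nRestore difference at 72 h were -0.29 and -0.34 for Rbm3 and -0.04 and -0.26 for Cirbp. For Cirbp the largest was eRestore at 9 h, -0.37 (-0.75 to 0.00). Fitted within gKO alone, the CHI minus sham difference of Rbm3 at 72 h ran from -0.35 to -0.07 when single sham mice were left out. All 3 contrasts at a time share the C57BL/6J mice, and they are built from the effects that the members were chosen for.

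Sham mice alone differed with time. In C57BL/6J the sham median of Rbm3 was 101.6 CPM at 9 h, 80.6 at 24 h and 72.3 at 72 h, and the fitted difference from 9 h was -0.31 (-0.69 to 0.08) at 24 h and -0.50 (-0.89 to -0.11) at 72 h. In IL-1R1 gKO these differences were -0.68 (-1.11 to -0.25) and -0.32 (-0.75 to 0.11). In eRestore they were -0.36 (-0.81 to 0.08) and -0.59 (-1.02 to -0.17). In nRestore they were -0.06 (-0.36 to 0.24) and -0.10 (-0.46 to 0.26), the fits closest to 0 among the strains.

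Cirbp in sham mice was lower at 24 h than at 9 h in the fit of each strain. The difference was -0.37 in C57BL/6J (-0.76 to 0.03), -0.56 in gKO (-0.98 to -0.14), -0.57 in eRestore (-0.90 to -0.24) and -0.44 in nRestore (-0.74 to -0.13). From 9 to 72 h it was -0.52 (-0.92 to -0.13), -0.22 (-0.64 to 0.20), -0.58 (-0.89 to -0.27) and -0.32 (-0.68 to 0.04) in the same order. Between 24 and 72 h the differences of both genes ran from -0.23 to 0.36, each with an interval that held 0. Without the mislabelled eRestore library, the Rbm3 and Cirbp differences from 9 to 24 h in that strain were -0.36 and -0.61, and the Cirbp difference from 24 to 72 h was 0.03 in place of -0.01.

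No experiment held both 9 h mice and mice of a later time, and surgery was done in the morning. Sham mice were aged 3.3 to 4.8 months at 9 h, 4.3 to 5.93 at 24 h and 4.6 to 7.67 at 72 h. Age was not in these fits. Time after surgery, experiment, age and hour of the day therefore cannot be told apart in these sham differences. Transcripts of the molecular clock were read in the same mice. Of 19 clock genes tested in sham mice, 6 were lower at 24 h than at 9 h and 0 higher in C57BL/6J (23.4% of 16577 genes passed in either direction), 7 and 0 in gKO (14.1%), 2 and 0 in eRestore (1.47%) and 5 and 0 in nRestore (5.91%), by edgeR's quasi-likelihood test. Without the mislabelled library 1 clock gene passed in eRestore. Ciart, a repressor of the clock, was among them in all 4 strains, with log2 differences of -1.06, -1.23, -1.11 and -1.04 (adjusted p = 1.94e-05, 0.00102, 0.0177 and 0.00816). Nr1d1, which encodes REV-ERBα, was lower in C57BL/6J, gKO and nRestore, with log2 differences of -0.84, -0.85 and -0.71 (adjusted p = 0.000278, 0.00225 and 0.00746). Dbp, a clock output gene, had -0.52, -0.56 and -0.47 in gKO, eRestore and nRestore (adjusted p = 0.0129, 0.0121 and 0.0161). Ciart, Nr1d1 and Dbp were picked out after their values were seen. In C57BL/6J, gKO, eRestore and nRestore, the Rbm3 difference from 9 to 24 h was -0.31, -0.68, -0.36 and -0.06. That of Cirbp was -0.37, -0.56, -0.57 and -0.44. The part of the clock genes in the sham levels of Rbm3 and Cirbp was not tested.

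The sexes were compared in one fit over all 200 mice, since sex was not used to choose the members. Rbm3, an X-linked gene, had a median of 89.1 CPM in males and 80.7 in females, and the male median was higher in 18 of 22 groups that held both sexes. The log2 difference was 0.14 (SE 0.05, 0.05 to 0.23), which did not pass across all genes (adjusted p = 0.210, edgeR quasi-likelihood test with Benjamini-Hochberg adjustment). For Cirbp the male median was higher in 13 of 22 groups. Cirbp had medians of 54.3 and 54.8 CPM and a difference of 0.02 (-0.06 to 0.11, adjusted p = 0.935). Of 20111 genes, 73 or 0.363% passed. Without the 2 libraries that go against their label, the counts of 18 and 13 groups were as before, the Rbm3 difference was 0.14 (adjusted p = 0.190) and the Cirbp difference 0.03 (adjusted p = 0.930). The Rbm3 adjusted p ran from 0.153 to 0.558 over the alternatives.

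The effect of CHI was also compared between the sexes, at 72 h in the 3 strains that held both. The male minus female difference of the Rbm3 effect was -0.09 (-0.36 to 0.17) at 9 h, 0.10 (-0.23 to 0.43) at 24 h and 0.10 (-0.29 to 0.49) at 72 h. For Cirbp it was -0.03 (-0.32 to 0.26), 0.25 (-0.04 to 0.55) and 0.04 (-0.30 to 0.38). None passed by edgeR (adjusted p of 0.852 to 1.0), and the intervals reached as far as 0.55. Without the mislabelled eRestore library the values at 24 h were 0.11 for Rbm3 (-0.23 to 0.44) and 0.28 for Cirbp (-0.03 to 0.58), and the nRestore library was not in the 72 h fit. Over all genes edgeR called 0 at each time (0%), with 429, 973 and 1619 at an unadjusted p under 0.05, and DESeq2 called 2, 1 and 1.

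Among sham mice, with experiment and sex in the fit, Rbm3 was at a log2 difference from C57BL/6J of -0.26 in IL-1R1 gKO (-0.50 to -0.03), -0.27 in eRestore (-0.50 to -0.03) and -0.09 in nRestore (-0.39 to 0.22). None passed (adjusted p = 0.232, 0.206 and 0.887, edgeR), where 4.63%, 5.14% and 2.12% of 18994 genes did. Cirbp was at 0.03, 0.10 and 0.25 (adjusted p = 0.953, 0.693 and 0.460). Without the mislabelled eRestore library the Rbm3 differences were -0.26, -0.27 and -0.09 and the Cirbp differences 0.02, 0.10 and 0.25. A fit of all 200 mice, which takes in the injured mice whose values chose the members and is given with no test, had Rbm3 differences of -0.32, -0.41 and -0.24. Under the other settings the adjusted p of Rbm3 ran from 0.198 to 0.241, from 0.177 to 0.392 and from 0.275 to 0.887 for the 3 strains.

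Mice of one group that were high in Rbm3 were also high in Cirbp. After group, experiment, sex and age were removed from log2(CPM + 1), the residuals of the 2 genes correlated over 200 mice with a Pearson r of 0.776 (permutation test of mice within groups, two-sided, p = 1e-05, the smallest that 100000 permutations can give, adjusted p = 3e-05 over 3 relations). Spearman's rho was 0.754 (p = 1e-05), and r was 0.766 without the 2 mice farthest from the median of Rbm3. With group means alone removed r was 0.728, with TPM in place of CPM 0.707, and without the mislabelled libraries 0.782.

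Within each of 20 groups of at least 6 mice r was positive, from 0.125 to 0.966 with a median of 0.78, and 7 of these passed after adjustment over 60 tests by permutation. The genes share libraries and normalization factors. The first principal component of the residuals of 12613 genes held 17.4% of their variance and had an absolute r of 0.521 with Rbm3 and 0.536 with Cirbp. With it removed the correlation was 0.690, and with the first 5 removed 0.692.

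The heat shock score, the mean over 23 heat shock and chaperone genes, went the other way between mice. Its residuals had an r of -0.296 with Rbm3 (permutation p = 0.00032, adjusted p = 0.00032) and of -0.317 with Cirbp (p = 0.00014, adjusted p = 0.00021), with rho of -0.264 (permutation p = 0.00061) and -0.292 (permutation p = 9e-05). Without the 2 mice of most extreme score r was -0.297 and -0.285, and with the first 5 principal components removed it was -0.388 and -0.501. Without the mislabelled libraries it was -0.317 and -0.315. Within groups the sign was mixed: r was below 0 in 14 of 20 groups for each gene, and 1 of 20 passed for Rbm3 and 0 of 20 for Cirbp. In C57BL/6J, gKO, eRestore and nRestore CHI mice at 9 h, r with Rbm3 was 0.132, 0.595, -0.0968 and 0.457. For Cirbp it was 0.0595, 0.65, -0.569 and -0.222. At 24 h these were -0.664, -0.857, -0.693 and -0.485 for Rbm3, and -0.675, -0.553, -0.547 and -0.305 for Cirbp. These groups were picked out after their values were seen. Brain or body temperature of single mice after surgery was not used here.

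**Figure D3:**
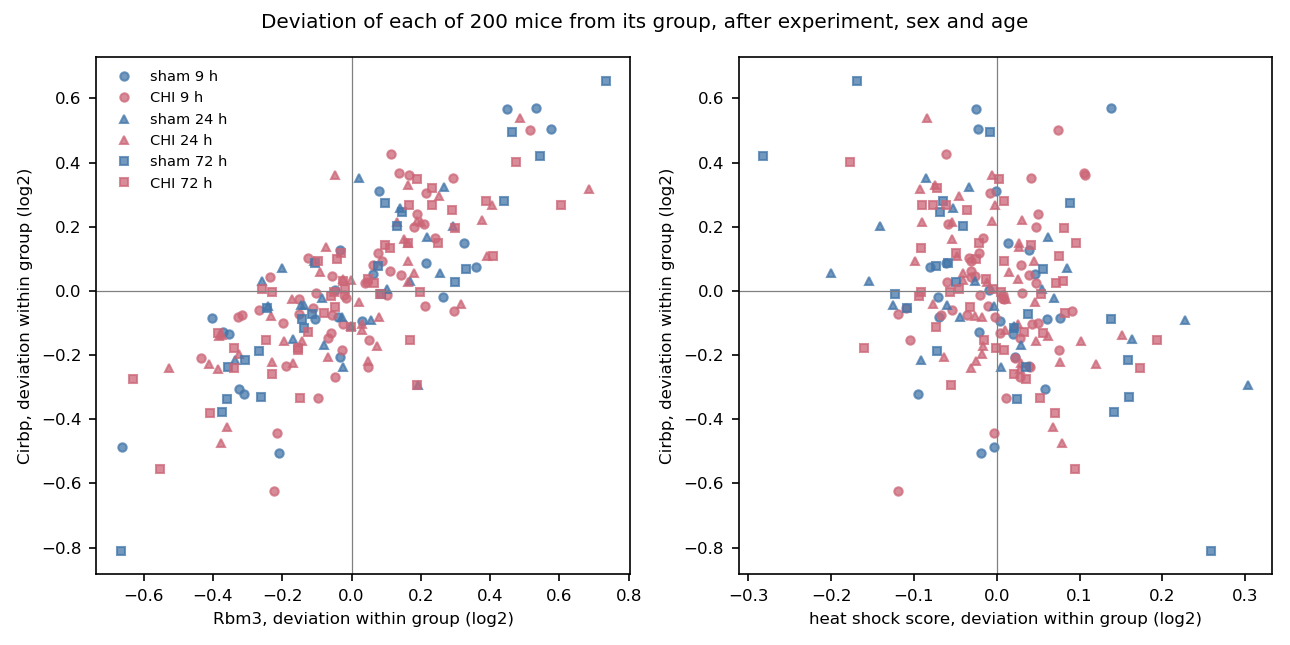
Deviation of each mouse from its group on the log2(CPM + 1) scale, after experiment, sex and age were removed. Left, Cirbp against Rbm3 (r = 0.776); right, Cirbp against the mean of 23 heat shock genes (r = -0.317). Colour gives the surgery and shape the time. Both panels hold the same 200 mice, and the left cloud is the narrower.

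Likeness of pattern was ranked over 12612 genes with at least 10 counts in every mouse. By within-group residuals over 200 mice, Cirbp was the gene most like Rbm3 and Rbm3 the gene most like Cirbp. Next to Rbm3 came Cetn3, a centrin (r = 0.633), the COP9 signalosome subunit Cops5 (0.623), Eny2 (0.620) and the SUMO gene Sumo3 (0.588). Next to Cirbp came Cops5 (0.700), the RNA polymerase III repressor Maf1 (0.683), Haghl (0.683) and Pccb (0.675). By the 24 group means, Cirbp stood only at rank 90 for Rbm3 and Rbm3 at rank 750 for Cirbp (r = 0.846 for both), so that many other genes stood nearer to each of them by group means. The genes with group means most like Rbm3 were Mir9-3hg (0.920), Rtca (0.899), Hmgb1 (0.899), Usp1 (0.896) and Isca1 (0.894), and those most like Cirbp were Klhl40 (0.966), Arhgef10l (0.961), ENSMUSG00000121318 (0.961), Eef2k (0.960) and Rhou (0.954). These r values are descriptions over points that share time, experiment and normalization.

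Genes tied to the pair by earlier knowledge were read in the fit over the 4 strains. Of 11 regulators, targets and receptors tested at 9 h, 1 was higher and 1 lower, against 12% and 11.9% of all genes. The higher one was Rpa2, a replication protein mRNA that CIRBP binds, by 0.30 (SE 0.06, adjusted p = 9.03e-05), and the lower one Hnrnph1, the splicing factor that acts on the Rbm3 poison exon, by -0.15 (SE 0.05, adjusted p = 0.0227). Hnrnph1 was also lower at 24 h (-0.17, SE 0.04, adjusted p = 0.00395), the only one of the 11 that passed then.

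The other members of that list did not pass at 9 h. Clk1 and Clk4, kinases that regulate splicing factors with temperature, had log2 differences of -0.20 and -0.04. Rtn3, a synaptic target whose translation RBM3 supports, had 0.07 (adjusted p = 0.380). Trpv4, a warm-sensitive channel linked to the induction of both genes, had -0.86 (SE 0.34, adjusted p = 0.0541), and Txn1, a thioredoxin mRNA that CIRBP binds, had 0.03. The receptor genes Tlr4 and Ly96 for extracellular CIRBP had 0.09 and 0.14, and Trem1 was too low to be tested. Ntrk2, the neurotrophin receptor upstream of Rbm3, and Sp1 had -0.03 and -0.01.

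Heat shock genes did not move as one group. At 9 h 2 of 23 were higher and 6 lower, where 12% and 11.9% of all genes were, with a median of -0.03 against -0.00 over all genes. The inducible Hsp70 genes Hspa1b and Hspa1a were higher by 0.42 (SE 0.09) and 0.32 (SE 0.07), with adjusted p of 0.000239 and 0.000138 by edgeR. They are near-identical copies, so the split of reads between them is uncertain. Chordc1, an Hsp90 co-chaperone, Serpinh1, the collagen chaperone, and Hsf1, the heat shock transcription factor, were lower by log2 differences of -0.37, -0.33 and -0.18 (adjusted p = 4.79e-05, 0.00215 and 0.0182). Hsph1 had -0.03 (adjusted p = 0.574). At 24 h 0 were higher and 3 lower (0.627% and 0.854% of all genes), Chordc1, Ahsa1 and Hsf1, and at 72 h 0 of 23 passed.

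Other RNA-binding genes with cold or Rbm names went both ways. Of 7 cold-shock domain genes tested at 9 h, Carhsp1 was higher (0.18, SE 0.06, adjusted p = 0.0307) and 6 did not pass, among them the Y-box genes Ybx1 and Ybx3 (-0.09 and -0.03). Of 33 other Rbm genes tested, 6 were higher and 8 lower, where 12% and 11.9% of all genes were. The highest called were Rbm48, Rbm11 and Rbm34 (0.25, 0.20 and 0.15) and the lowest Rbm24, Rbm28 and Rbm45 (-0.28, -0.27 and -0.26), and Rbm47, which did not pass, had -0.56 (SE 0.30, adjusted p = 0.176). At 24 h Rbm11, a splicing regulator of brain and testis, was again higher (0.32, adjusted p = 0.00414) and Rbm45 again lower (-0.14, adjusted p = 0.0333), and at 72 h 0 of 33 passed.

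Clock genes after CHI were likewise split. At 9 h 4 of 19 were higher and 4 lower (median -0.01), where 12% and 11.9% of all genes were, and at 24 and 72 h 0 of 19 passed. The higher ones included Tef, Per3 and Cry1 (0.29, 0.27 and 0.21), and the lower ones Nfil3, Rorb and Per1 (-0.29, -0.25 and -0.20). Clock itself had 0.01 (adjusted p = 0.817). These differences and the sham differences from 9 to 24 h share the 22 sham mice of 9 h.

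**Figure D4:**
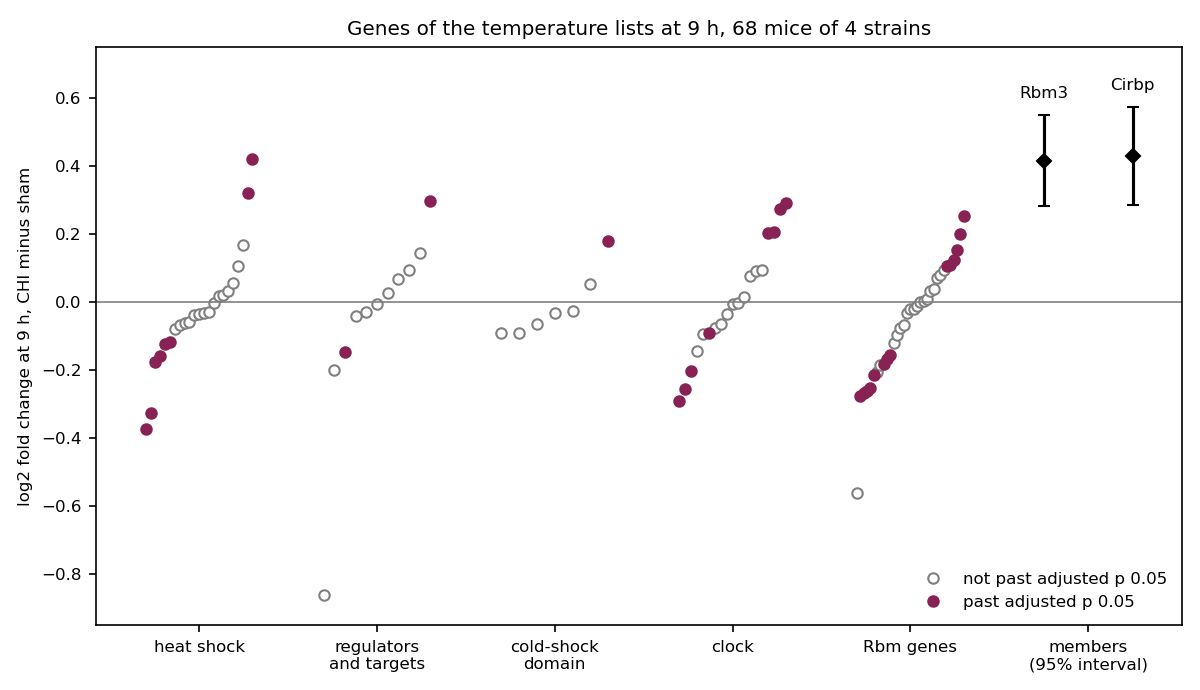
Log2 fold change between CHI and sham mice at 9 h over the 4 strains for every tested gene of 5 lists; filled points passed an adjusted p of 0.05, open points did not. The diamonds give Rbm3 (0.42) and Cirbp (0.43) with their 95% intervals, drawn for comparison and with no test. The tested list genes lie between -0.86 and 0.42.

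Some cell type markers passed between CHI and sham mice at 9 h, where 12% of all genes passed as higher and 11.9% as lower. Of 4 microglial markers (Csf1r, Cx3cr1, P2ry12 and Tmem119) 3 were lower after CHI at 9 h, and their summed level was 72.4 to 244.3 TPM in CHI mice (median 146.6) against 118.8 to 268.6 in sham mice (median 174.5). Of 4 endothelial markers (Cldn5, Flt1, Ly6c1 and Pecam1) 3 were higher and 1 lower, with sums of 112.9 to 269.6 TPM (median 182.3) against 91.2 to 190.998 (median 148.3). Of 4 choroid plexus markers 3 were lower, with sums that spanned 5.79 to 2481 TPM after CHI (median 23.9) and 8.56 to 6138 after sham surgery (median 46.5). Among them was Ttr, which is also the only liver marker that could be tested, Alb and Apoa1 being too low. The 5 erythrocyte markers did not pass, with medians of 167.7 and 24.6 TPM. Their part in the levels of Rbm3 and Cirbp was not tested. Neuronal, astrocyte and oligodendrocyte sums overlapped widely, with 1 of 4 higher and 1 lower, 1 of 4 higher, and 0 of 4. Of skeletal muscle markers Acta1 was higher and Myh4 did not pass, with muscle sums of at most 14.5 TPM in any mouse, and none of the listed markers was at 0 in all mice.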

How the data were processed

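One brain hemisphere per mouse was sequenced as poly(A) RNA, and the authors trimmed reads, aligned them with STAR to GRCm39 and quantified genes with Salmon in the nf-core/rnaseq pipeline; the annotation release and strand setting were not given in the sources used here. The deposited tables hold estimated counts per gene, not normalized, and TPM, which the authors' pipeline scaled for gene length and library total. Counts were rounded and fitted with edgeR 4.0.16 (R 4.3.3; TMM factors, robust quasi-likelihood F-test, a filter of 10 counts in a number of mice equal to the size of the smallest group, Benjamini-Hochberg adjustment over all genes tested, threshold 0.05). The study's own design of sex and age as covariates was kept within each strain and time. CPM values carry TMM factors, and a pseudocount of 1 was added before logs. A fold change is on the fitted log2 scale.

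The members and gene lists were chosen with earlier results of these data known. Genes named from lists were up to 3 per direction with the largest difference among those called at 9 h, and Clock, Rtn3, Hnrnph1, Hspa1a, Hspa1b and Hsph1 in any case. Likeness named the 5 genes of highest r, with symbols made of Gm and digits or ending in Rik left out. Other members of a list were named to show its roles. Bmal1 was matched through its older symbol, Arntl. The clock genes in sham mice were added after seeing the data. Replicates are single mice, numbered in accession order. Library totals of 14857985 to 57355676 limit precision for low genes only. Scripts were tested on simulated data. DESeq2 1.42.0, other factors, filters, covariates and subsets of mice served as alternatives.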

Additional observations from a re-analysis of the deposited data

Results flagged for a closer look

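In 32 checks of groups of 4 to 10 mice for a mouse far from the rest of its group, 3 values stood out, and chance flags about 1 in 20 groups. In IL-1R1 eRestore sham mice at 9 h, replicate 6 had the highest level of both genes, 146.483 CPM of Rbm3 where the next mouse had 92.2, and 99.576 CPM of Cirbp where the next had 74.3. The mouse is thus high in both members at once, in the direction of the within-group correlation. In IL-1R1 nRestore CHI mice at 24 h, replicate 6 had the lowest Rbm3 level, 57.8376 CPM, where the next had 72.2 and the highest 88.1.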

How the results depend on the processing

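Of 756 values recomputed under an alternative, 720 kept their direction and side of the threshold or moved by less than the spread between mice. The CHI minus sham difference of Rbm3 and Cirbp at 9 h was above 0 in every setting tried, in each strain and over the 4 strains, with ranges of 0.12 to 0.76 for Rbm3 and 0.08 to 0.78 for Cirbp. In experiment eIL-1-80 alone the C57BL/6J Rbm3 difference was 0.15 and the eRestore Cirbp difference 0.48. Differences moved when single sham mice were left out, whether or not their interval held 0. At 9 h in C57BL/6J they ran from 0.34 to 0.58 (Rbm3) and from 0.53 to 0.78 (Cirbp). In gKO they ran from 0.39 to 0.55 and from 0.47 to 0.56. In eRestore at 9 h the ranges were 0.21 to 0.43 and 0.18 to 0.32, and in nRestore 0.61 to 0.76 and 0.59 to 0.68. At 72 h in gKO they ran from -0.35 to -0.07 (Rbm3) and from -0.34 to -0.05 (Cirbp), in eRestore from -0.19 to 0.08 and from -0.14 to 0.05, and in nRestore from 0.02 to 0.18 and from -0.10 to -0.01. At 24 h they ran in eRestore from 0.18 to 0.29 and from 0.10 to 0.28, in nRestore from -0.08 to 0.11 and from 0.08 to 0.27, and for Cirbp in C57BL/6J from 0.12 to 0.23. Some CHI minus sham differences whose interval held 0 changed sign. In eRestore at 72 h 10 of 14 settings kept the sign for each gene. In nRestore 9 of 12 did for Rbm3 at 24 h and 13 of 14 for Cirbp at 72 h. Among the tested differences, the signs that turned belonged to ones that passed no test. With C57BL/6J mice only, the sex difference of the CHI effect was 0.22 (Rbm3, 9 h), 0.13 (Cirbp, 9 h), -0.32 (Rbm3, 72 h) and -0.16 (Cirbp, 72 h). Cirbp male minus female was -0.020 in sham mice only, Cirbp in gKO minus C57BL/6J sham mice was -0.018 with time in place of experiment, and in eRestore -0.012 with all 200 mice. With all 200 mice, which take in the mice that chose the members, the Rbm3 strain differences were -0.32, -0.41 and -0.24, given with no test.

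Counts moved as follows. At 24 h, 1 heat shock gene passed with no filter (3 before), and 1 Rbm gene with no filter or with experiment in place of age (2 before). Of all genes fitted at 24 h, 0.952% passed with experiment in place of age and 2.55% with DESeq2 (1.48% before). DESeq2 called 2, 1 and 1 genes for the sex difference of the CHI effect. Genes higher in males were 51 with no filter, 9 in sham mice only and 11 in CHI mice only (21 before), and genes lower in males 76, 19 and 34 (52 before), the subsets having fewer mice. Strain calls were 4707 (gKO), 5649 (eRestore) and 2535 (nRestore) with all 200 mice, and 2763 for nRestore with time in place of experiment (879, 976, 403 and 403 before). From 9 to 24 h in eRestore sham mice, 4 clock genes passed with no covariates or DESeq2 and 1 without the mislabelled library (2 before), and all genes were 724 with DESeq2 and 61 without it (245 before); in nRestore DESeq2 called 8 clock genes and 1973 genes (5 and 1024 before).

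No paired analysis was possible because replicate numbers were given in accession order and pair no mice. Settings on sex-mismatched libraries, principal components and library totals were chosen after seeing the data. Depth does not limit the members. Strain names, a hemisphere of mixed cells, small sham groups and the tie of time to experiment and age do.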
